A study of Mus musculus with 36 samples.

Results

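Histone genes were examined in the hippocampus (HIP), the nucleus accumbens (NAc) and the prefrontal cortex (PFC) of mice given histone deacetylase (HDAC) inhibitors for 10 days. Members were taken by name, as every array probe whose gene symbol begins with Hist1h to Hist4h, H1f, H2af or H3f. This gave 109 of 45281 probes, for 72 of 30869 gene symbols. Of these, 89 probes for 59 genes lie in the histone gene clusters (Hist1 to Hist4), and 20 probes for 13 genes lie outside them. The clustered genes comprised 6 genes for the linker histone H1, 17 for H2A, 15 for H2B, 9 for H3 and 12 for H4. The genes outside the clusters comprised H1f0, 3 other linker genes, 7 H2A variant genes and the 2 genes for H3.3.

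Adult male C57BL/6J mice received daily intraperitoneal injections of vehicle (saline, PEG-400 and DMSO), Cpd-60 at 45 mg/kg, SAHA at 25 mg/kg or CI-994 at 10 mg/kg, and tissue was taken 1 h after the last of 10 injections. Cpd-60 and vehicle were given at 7.5 mL/kg, and SAHA and CI-994 at 5 mL/kg. Cpd-60 is selective for HDAC1 and HDAC2, SAHA is a hydroxamate that inhibits class I and class II HDACs, and CI-994 is a further HDAC inhibitor. RNA of 2 mice was pooled for each of 36 Illumina MouseWG-6 BeadChip arrays, with 3 pools for each treatment, and the same pools supplied all 3 regions. The doses of the drugs differ, so their values are given side by side and were not tested against each other, and all drugs share the vehicle pools. The labels conflict on 1 pool, since the second Cpd-60 pool is named as mice 3 and 4 in its title and as mice 1 and 2 in its description, in every region.

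Nucleosomes are made of the core histones H2A, H2B, H3 and H4, and the linker histone H1 binds the DNA between them. The clustered, replication-dependent genes are transcribed mainly in S phase, and their mRNAs usually end in a stem-loop in place of a poly(A) tail. The genes outside the clusters include the replication-independent variants, among them H2A.Z (H2afz and H2afv), H3.3 (H3f3a and H3f3b) and the linker histone H1.0 (H1f0), which have polyadenylated mRNAs and are the forms supplied to chromatin of cells that no longer divide, such as neurons. H1f0 is a known responder to HDAC inhibition in cultured cells. The array protocol primes cDNA from poly(A) tails, so values for clustered genes reflect whatever fraction of their transcripts this step captures. Many clustered genes are near-identical copies, and a probe may pick up transcripts of several of them, so the gene named for a clustered probe is uncertain.

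The promoters of 4 members are shown because they illustrate the classes compared here: Hist1h2bk and Hist1h2bf of the H2B genes that carry the lowest p-values under Cpd-60, H3f3b, which lay on the other side of vehicle, and H1f0. Each is the 250 bases before the RefSeq start (GRCm38.p6), read 5′ to 3′ on the strand of the gene, and capitals mark a CCAAT motif, the letters TATAAA or the octamer motif ATGCAAAT on either strand. The TATAAA match of Hist1h2bk and of Hist1h2bf is on the strand opposite to the gene, in the part of the window far from the start, and that of H3f3b is on the strand of the gene.
Hist1h2bk, chr13:22035571-22035820 (plus strand): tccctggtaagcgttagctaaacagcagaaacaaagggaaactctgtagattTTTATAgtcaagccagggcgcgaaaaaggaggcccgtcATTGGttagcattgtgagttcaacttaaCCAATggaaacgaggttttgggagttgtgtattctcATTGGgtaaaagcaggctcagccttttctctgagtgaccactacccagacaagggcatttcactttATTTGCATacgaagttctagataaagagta
Hist1h2bf, chr13:23574208-23574457 (minus strand): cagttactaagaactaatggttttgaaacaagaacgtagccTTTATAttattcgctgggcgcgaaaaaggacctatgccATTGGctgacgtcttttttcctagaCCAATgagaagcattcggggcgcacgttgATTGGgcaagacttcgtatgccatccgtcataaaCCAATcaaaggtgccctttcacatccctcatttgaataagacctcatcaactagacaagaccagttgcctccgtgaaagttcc
H3f3b, chr11:116024505-116024754 (minus strand): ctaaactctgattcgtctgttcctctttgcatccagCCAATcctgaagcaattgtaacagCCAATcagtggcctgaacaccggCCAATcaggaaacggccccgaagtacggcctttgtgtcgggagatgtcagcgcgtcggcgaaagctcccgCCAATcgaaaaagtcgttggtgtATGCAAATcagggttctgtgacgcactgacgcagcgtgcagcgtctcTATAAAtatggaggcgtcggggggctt
H1f0, chr15:79027962-79028211 (plus strand): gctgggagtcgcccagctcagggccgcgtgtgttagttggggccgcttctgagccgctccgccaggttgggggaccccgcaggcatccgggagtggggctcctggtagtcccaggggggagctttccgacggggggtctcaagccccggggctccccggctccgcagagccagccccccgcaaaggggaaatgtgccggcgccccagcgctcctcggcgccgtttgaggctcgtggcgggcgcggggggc

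All 72 symbols matched a RefSeq gene, 3 by current symbol and 69 by a synonym, and 64 of these genes have a promoter in the table used. A CCAAT motif (or ATTGG, its reverse complement) was found in 44 of 53 clustered promoters (83.0%), against 33.8% of 32851 promoters of all genes, and in all 17 H2A and all 12 H2B promoters, but in 3 of 11 H4 promoters. TATAAA (or TTTATA) was found in 25 of 53 clustered promoters (47.2%) and in 12.4% of all promoters, and on the strand of the gene in 21 of 53 (39.6%) and in 7.59%. The octamer ATGCAAAT (or ATTTGCAT), the sequence bound by Oct factors, was found in 7 of 17 H2A promoters, in 7 of 12 H2B promoters and in no clustered H1, H3 or H4 promoter, against 1.6% of all promoters. Of the 11 promoters outside the clusters, 6 held CCAAT, and H3f3b alone held the octamer and TATAAA, while the window of H1f0 held none of the 3 motifs. Among the 29 H2A and H2B genes with a promoter, 12 start back to back with a gene of the other class, with 164 to 281 bases between the starts. Hist1h2bk is paired in this way with Hist1h2ah (178 bases) and Hist1h2bf with Hist1h2ad (174 bases).

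Levels are given as log2 of the quantile-normalized intensity, on which the median over all probes was 6.62. The 36 arrays had raw medians of 82.2 to 108.3 and 95th percentiles of 349.9 to 1080, and detection at p of 0.01 or below held for 31.87% to 43.33% of probes on each. The dimmest array was that of Cpd-60 pool 1 in the NAc, with a 95th percentile of 349.9 against 480.5 to 861.2 for the vehicle pools there. The HIP arrays of SAHA pools 2 and 3 were the next dimmest, with 95th percentiles of 437.7 and 452 against 665.2 for pool 1. Precision is limited by the number of arrays. Summed marker intensity followed the labelled tissues, since cortical markers were highest in the PFC (1791 to 2177 over its arrays, against at most 944 in the HIP and 607 in the NAc), striatal markers in the NAc (11387 to 18660, against at most 1683 elsewhere) and hippocampal markers in the HIP (1792 to 2508, against at most 420 elsewhere).

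A probe was tested in a region when all 3 arrays of some treatment there gave a detection p of 0.2 or below. By this rule member probes tested numbered 79 for the HIP, 79 for the NAc and 65 for the PFC, with 64 probes for 43 genes in all 3 regions. The remaining 26 probes, for 16 genes, were tested nowhere. These untested genes included H1fnt and H1foo, the linker genes of the male and female germ line. Detection differed by class, with 23 of 24 H2A probes tested in at least 1 region against 10 of 18 H3 probes. The highest mean levels of the members over 36 arrays were 10.66 for H2afz, a gene for H2A.Z, and 10.61 for H3f3a (ILMN_3145213), a gene for H3.3. The second probes of H3f3a and H3f3b were near background, at 6.66 and 6.73.

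Cpd-60 was compared with vehicle first within each region. With Cpd-60, most clustered H2A and H2B probes lay below vehicle in all 3 regions, with median differences on the log2 scale of -0.25 in the HIP (36 probes), -0.15 in the NAc (37 probes) and -0.14 in the PFC (31 probes). Of these probes 28, 33 and 32 had differences below 0 in the PFC, NAc and HIP. Clustered H3 and H4 probes lay nearer to vehicle, with medians between -0.07 and -0.02 in the 3 regions. These probes were also dimmer, with mean levels of at most 8.31 for H3 and 7.76 for H4, while 6 H2A and 5 H2B probes exceeded 9. Background was not subtracted, and the part of signal level in this difference between classes was not tested. The median over all member probes was -0.10 in both the HIP and the PFC and -0.06 in the NAc, while the median over all probes tested was 0.00 in each region.

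No member passed an adjusted p of 0.05 for Cpd-60 in any region (limma with Benjamini-Hochberg adjustment), and no probe of the array did (0%). At an unadjusted p under 0.05, the HIP held 23 member probes of 79 lower with Cpd-60, against 2.89% of all probes lower, and 3 higher, against 2.37%. The 23 comprised 13 of 22 H2A probes, 7 of 14 H2B probes, 2 of 10 H3 probes and 1 of 13 H4 probes, and none outside the clusters. In the PFC 6 member probes of 65 were lower (2.69% of all probes) and 2 higher (2.5%). In the NAc 5 of 79 were lower (2.7%) and 2 higher (2.07%), and 3 were lower without the dim array of Cpd-60 pool 1. Pools did not overlap and lay below vehicle for 18 members in the HIP (6.43% of all probes), 7 in the NAc (5.12%) and 7 in the PFC (4.81%). They lay above it for 5 members in the HIP (5.78%), 2 in the NAc (4.26%) and 0 in the PFC (4.87%), shares of the members close to or below those of all probes. A Tukey test was also run on all treatments, with CI-994 included, whereas the methods used 3 treatment groups and an analysis of variance first. By this test, 8 members in the HIP, 2 in the NAc and 3 in the PFC were lower at p under 0.05, unadjusted over probes. Without Cpd-60 pool 1 or pool 2 the HIP count by limma was 14 or 9, and without Cpd-60 pool 3 the PFC count was 15. The share of all probes is not given for the Tukey test or with a pool left out. Shifts in those counts therefore cannot be read as particular to the members.

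**Figure D1:**
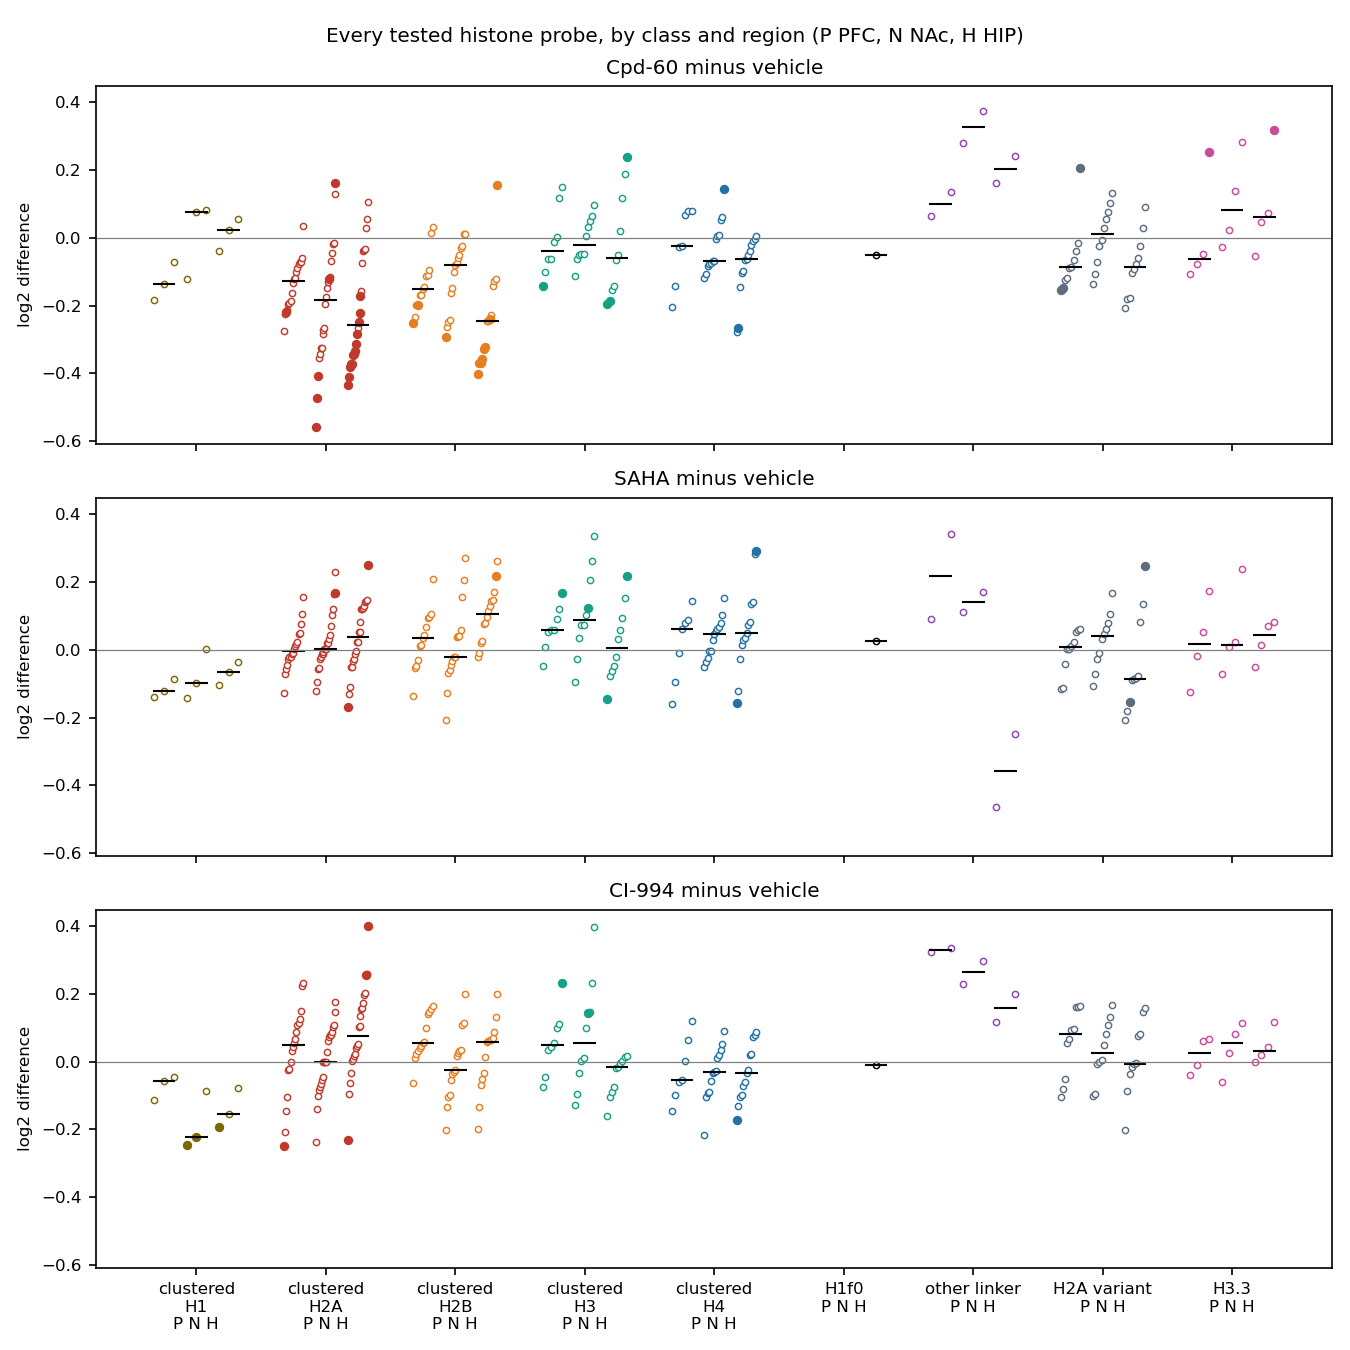
Difference of each drug from vehicle for every tested histone probe (log2 scale, y axis), by histone class and region (x axis), with filled points at an unadjusted p under 0.05 and black bars for class medians. Clustered H2A and H2B probes lay mostly below 0 with Cpd-60, with medians of -0.26 and -0.25 in the HIP, while their medians with SAHA and CI-994 lay between -0.02 and 0.11 in every region.

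In the HIP, the largest difference below vehicle was that of Hist1h2ad (ILMN_2795040), a clustered H2A gene. Its levels were 7.63, 7.61 and 7.89 in the 3 Cpd-60 pools and 8.14, 8.10 and 8.19 in the 3 vehicle pools. All Cpd-60 pools lay below all vehicle pools, with a difference of -0.43 ± 0.10 (SE, n = 3 pools per group, limma adjusted p = 0.814). Hist1h2ao, another H2A gene, gave 9.48, 9.13 and 9.71 with Cpd-60 against 10.04, 9.78 and 9.73 with vehicle, a difference of -0.41 ± 0.17 (SE). The H2B gene Hist1h2bk (ILMN_2636781) gave 8.20, 8.15 and 8.54 with Cpd-60 against 8.83, 8.68 and 8.59 with vehicle. Its pools did not overlap either, and the third Cpd-60 pool lay closest to vehicle, as it did for Hist1h2ad and Hist1h2ao.

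Of the 5 members in the HIP whose pools all lay above vehicle, 3 had an unadjusted p under 0.05. H3f3b (ILMN_2648292), which encodes H3.3, gave 10.49, 10.86 and 10.45 with Cpd-60 against 10.20, 10.42 and 10.23 with vehicle, a difference of 0.32 ± 0.12 (SE). Hist1h3h, a clustered H3 gene, differed by 0.24 ± 0.09 (SE). For Hist1h2bc, probe ILMN_2677231 differed by 0.15 ± 0.07 (SE) and ILMN_1242399 by -0.36 ± 0.16 (SE). The first was near background, with a mean level of 6.60 and a detection p of 0.01 or below on 1 of 36 arrays. The second had a mean of 8.91 and was detected so on all 36. Which transcripts each of these probes reads was not tested.

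In the NAc, Hist2h2ac (ILMN_1218380), an H2A gene, had levels of 9.68, 10.03 and 9.74 with Cpd-60 and 10.38, 10.23 and 10.07 with vehicle, a difference of -0.41 ± 0.12 (SE). The second Hist2h2ac probe (ILMN_1254276) went the other way, by 0.16 ± 0.07 (SE). Hist1h2be (ILMN_2676243), an H2B gene, gave 7.52, 7.48 and 7.43 with Cpd-60 against 7.78, 7.87 and 7.65 with vehicle, and differed by -0.29 ± 0.08 (SE). Hist1h2ab differed by -0.12 ± 0.06 and Hist1h4c, an H4 gene, by 0.14 ± 0.06 (SE). Both were near background, with mean levels of 6.63 and 6.60 and a detection p of 0.01 or below on 2 and 4 of 36 arrays. NAc values of the H2A genes varied widely between Cpd-60 pools, from 7.63 in pool 1 to 8.53 in pool 2 for Hist1h2ad. Pool 1 is the dimmest array, and without it the median difference of the 22 H2A probes was -0.09 in place of -0.19, that of the 15 H2B probes -0.05 in place of -0.08, and that of Hist1h2ad (ILMN_2795040) -0.06 in place of -0.28.

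In the PFC, the 3 largest differences below vehicle among members with non-overlapping pools and an unadjusted p under 0.05 were those of Hist1h2bn, Hist2h2aa1 and H2afv. Hist1h2bn, an H2B gene, gave 7.37, 7.35 and 7.49 with Cpd-60 and 7.61, 7.74 and 7.62 with vehicle, a difference of -0.25 ± 0.07 (SE). Hist2h2aa1 (ILMN_2751948) differed by -0.22 ± 0.07, and H2afv (ILMN_2703385), a gene for H2A.Z, by -0.15 ± 0.07 (SE). These 3 genes are of different classes, and their adjusted p-values were 0.791 to 0.955 by limma. The other members with non-overlapping pools were H2afj (-0.15), Hist1h3d (-0.14), Hist1h4k (-0.14) and Hist2h3c1 (ILMN_2521561, -0.10). This Hist2h3c1 probe was near background, with a mean level of 6.59 and a detection p of 0.01 or below on 2 of 36 arrays. The brighter probe ILMN_3136540, with a mean of 8.13, differed by 0.15, and ILMN_3040069 differed by -0.01, both with overlapping pools.

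**Figure D2:**
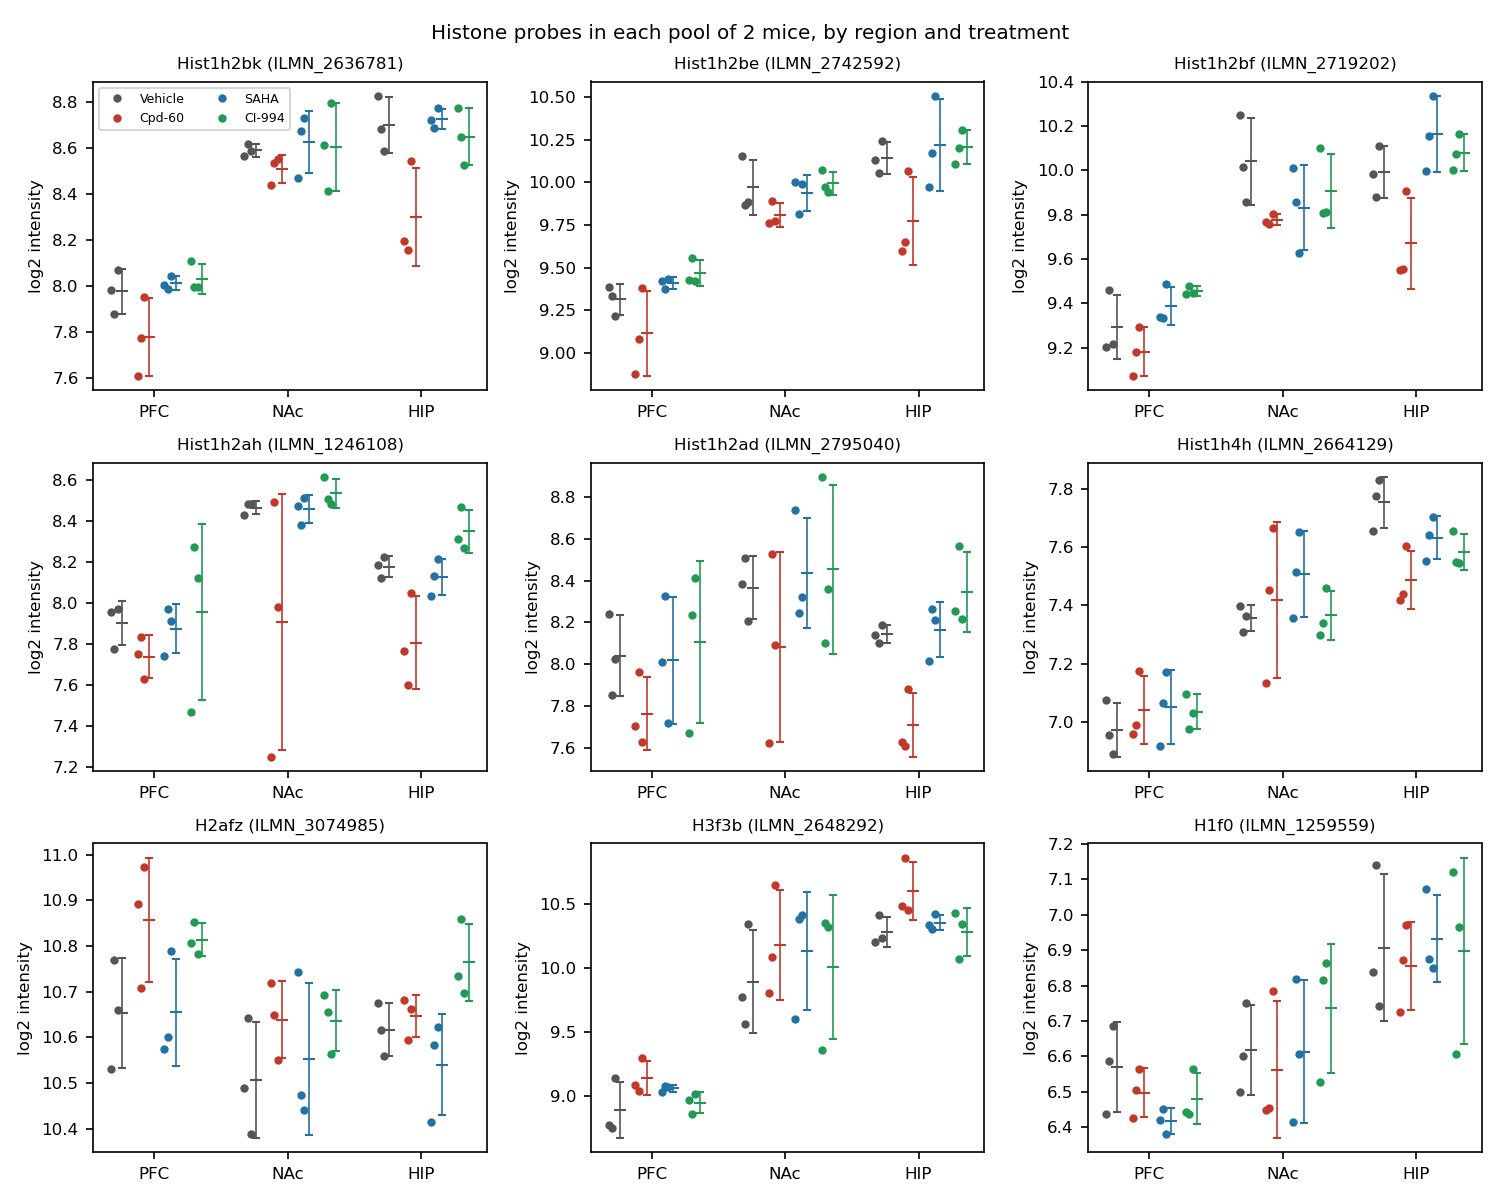
Levels of 9 histone probes (log2 intensity, y axis) in each pool of 2 mice, by region (x axis) and treatment (colour), with bars for the mean ± SD of 3 pools. Hist1h2bk lay lower with Cpd-60 in the HIP without overlap (8.15 to 8.54 against 8.59 to 8.83), while H3f3b lay higher there, and H1f0 stayed between 6.38 and 7.14 in all pools.

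The mean difference over the 3 regions was tested next, on the 64 member probes tested in each. Such a mean can rest mainly on 1 region, so it does not show that a difference was shared. With Cpd-60, 111 of 19447 probes passed an adjusted p of 0.05 (0.571%), and 0 of the 64 member probes did. At an unadjusted p under 0.05, 29 member probes were lower (5.96% of all probes) and 2 were higher (4.62%). The lower probes were 14 of 18 for H2A, 10 of 13 for H2B, 1 of 8 for H3, 2 of 7 for H4 and both probes of H2afv. Those higher were H3f3b and H2afz. The median difference was -0.20 for H2A and H2B probes, of which 29 of 31 lay below 0, -0.15 for all clustered probes and -0.03 for those outside the clusters, against 0.00 for all probes of the array. The count of lower members was 17 without vehicle pool 1, 14 without Cpd-60 pool 1 and 22 without Cpd-60 pool 2, the pool whose labels conflict. The share of all probes with a pool left out is not given, so these shifts cannot be read as particular to the members.

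The lowest adjusted p among members was that of Hist1h2bk (ILMN_2636781), at 0.0607 by limma, with a mean difference of -0.23 ± 0.06 (SE), or 0.855-fold. Its levels were 7.61, 7.77 and 7.95 in the PFC with Cpd-60 against 7.98, 7.88 and 8.07 with vehicle. In the NAc they were 8.44, 8.53 and 8.55 against 8.56, 8.62 and 8.59. The groups overlapped in the PFC and did not in the NAc and HIP. Next came Hist1h2be (ILMN_2676243), with a difference of -0.29 ± 0.07 (SE) and an adjusted p of 0.0657, and Hist1h2bf, with -0.23 ± 0.06 (SE) and an adjusted p of 0.103.

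Among the 6 clustered genes with the highest mean signal, which are 5 H2A genes and Hist1h2be, the mean difference with Cpd-60 was below 0 for each. It was -0.20 for Hist1h2af, -0.21 for Hist1h2ai, -0.26 for Hist2h2ac, -0.30 for Hist1h2ao, -0.30 for Hist1h2ad and -0.24 for Hist1h2be (ILMN_2742592), with SE between 0.06 and 0.13. The same probes differed from vehicle by 0.01 to 0.05 with SAHA and by 0.00 to 0.12 with CI-994. With Cpd-60 their differences were -0.31 to -0.41 for the HIP, -0.12 to -0.41 for the NAc and -0.06 to -0.21 for the PFC, and that of Hist2h2ac was larger in the NAc (-0.41) than in the HIP (-0.31).

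**Figure D3:**
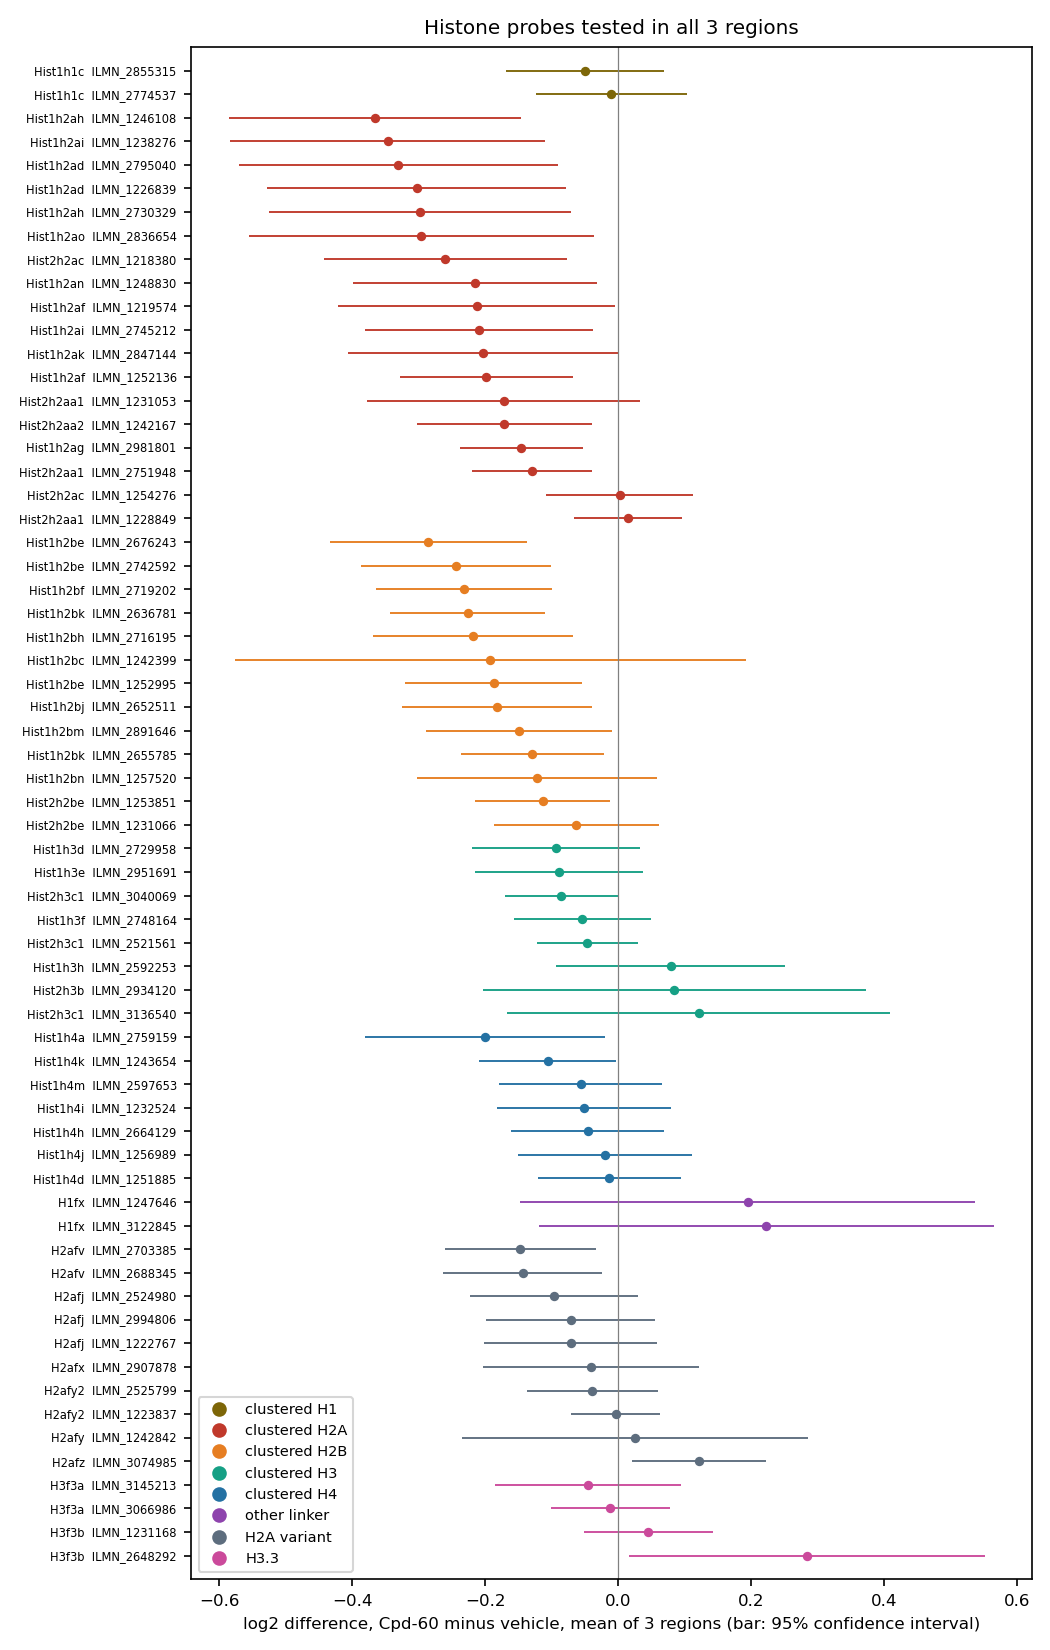
Difference between Cpd-60 and vehicle, as the mean of 3 regions (log2 scale, x axis), for the 64 histone probes tested in all regions (y axis, coloured by class), with bars for the 95% confidence interval. All 13 H2B probes and 16 of 18 H2A probes lay below 0, and H3f3b (0.29) and H2afz (0.12) lay above it.

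Each region was hybridized on 2 BeadChips of its own, and every treatment was split over both. With the BeadChip as a block, 340 of 19447 probes passed for Cpd-60 (1.75%), and 6 of the 64 member probes did. Of these, H3f3b rose by 0.29 ± 0.06 (SE, adjusted p = 0.0107 by limma), and the H2B probes fell. Hist1h2bf differed by -0.23 (adjusted p = 0.0134 by limma), Hist1h2be by -0.29 and -0.24 (0.0176 and 0.0241), Hist1h2bk by -0.23 (0.0381) and Hist1h2bh by -0.22 (0.0497). Within single BeadChips, of which there were 6 over the regions, Hist1h2bk lay below vehicle in 6 and H3f3b above it in 6, and Hist1h2be and Hist1h2bf lay below it in 5 and Hist1h2bh in 4. These probes were picked by the fit above on the same arrays, so their signs describe it and are no further test. Each second chip held only 1 Cpd-60 array and 1 vehicle array. The difference for Hist1h2bk was between -0.58 and -0.10 on the first chips and between -0.12 and -0.03 on the second, which hold Cpd-60 pool 3. Without Cpd-60 pool 3 and without the block, 11 member probes passed (4.8% of all probes), all lower, of which 8 read H2B genes, 2 read the H2A genes Hist1h2ah and Hist2h2aa2 and 1 read Hist1h4a, and H3f3b was not among them.

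Whether Cpd-60 acted differently in the HIP was tested as its effect there minus its mean effect in the PFC and NAc. No probe of the array passed an adjusted p of 0.05 in this test for any drug (0%). At an unadjusted p under 0.05, members numbered 2 for Cpd-60 (1.7% of all probes), namely Hist1h2bk (-0.26) and Hist1h4h (-0.33). For SAHA they numbered 3 (7.25% of all probes), namely Hist1h4j (0.35), H2afv (0.36) and Hist1h3f (0.24), and for CI-994 they numbered 0 (1.68%).

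SAHA was compared with vehicle in the same way. No member passed an adjusted p of 0.05 in any region or on average, and no probe of the array did (0%). At an unadjusted p under 0.05 the members were 9 of 79 for the HIP (9.37% of all probes), 2 of 79 for the NAc (2.05%), 1 of 65 for the PFC (2.25%) and 2 of 64 on average (3.34%). The member in the PFC was Hist2h3b (0.17), and those in the NAc were Hist2h2ac (ILMN_1254276, 0.17) and Hist1h3f (0.12). Among those in the HIP whose pools did not overlap, Hist1h4j (0.29), Hist1h2an (0.25) and H2afv (0.25) lay highest, and Hist3h2a (-0.17), Hist1h4f (-0.16) and H2afy2 (-0.15) lowest. Pools there did not overlap and lay below vehicle for 6 of 79 members (10.8% of all probes) and above it for 4 (8.45%). Hist3h2a was near background, with a mean level of 6.61 and a detection p of 0.01 or below on 10 of 36 arrays. The Hist1h4f probes were dim too, with mean levels of 6.58 to 6.78, as were those of H2afy2, at 6.60 and 6.89. The member median was 0.03 in both the HIP and the NAc and 0.01 in the PFC. The SAHA arrays of the HIP include the 2 dim ones, whose part in these values was not tested. On average over regions, Hist1h4i differed by 0.17 ± 0.06 (SE) and H2afy2, a macroH2A gene, by -0.11 ± 0.05 (SE).

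CI-994 likewise gave 0 adjusted calls in each region, among members and over the array (0%). At an unadjusted p under 0.05 there were 5 of 79 members for the HIP (3.24% of all probes), 3 of 79 for the NAc (1.99%) and 2 of 65 for the PFC (3.98%). By the Tukey test no member was called for SAHA or CI-994 in any region after adjustment. Averaged over regions 16 probes of the array passed (0.0823%), none of them a member, and 5 of 64 members had an unadjusted p under 0.05 (4.42% of all probes), the lowest adjusted p among them being 0.725.

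With CI-994, Hist1h1c, the clustered gene for the linker histone H1.2, lay below vehicle in each region. In the NAc, probe ILMN_2774537 gave 9.69, 9.82 and 9.76 with CI-994 against 10.07, 9.91 and 10.01 with vehicle, and probe ILMN_2855315 gave 9.37, 9.29 and 9.20 against 9.60, 9.49 and 9.44. Neither probe overlapped between groups, and the differences were -0.25 ± 0.08 and -0.22 ± 0.08 (SE). In the HIP they were -0.19 ± 0.07 and -0.16 ± 0.08 (SE), and in the PFC -0.06 ± 0.12 and -0.11 ± 0.12 (SE). The 2 probes thus gave like values in each region. The average over regions was -0.17 ± 0.06 and -0.16 ± 0.06 (SE), with an adjusted p of 0.753 and 0.869 by limma. With Cpd-60 the same averages were -0.01 ± 0.06 and -0.05 ± 0.06 (SE), and with SAHA -0.11 ± 0.06 and -0.07 ± 0.06 (SE).

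Other members under CI-994 did not move with Hist1h1c in 1 direction. Hist1h2ak, an H2A gene, gave 8.38, 8.62 and 8.29 in the HIP against 8.16, 7.97 and 7.97 with vehicle, a difference of 0.40 ± 0.10 (SE). Hist2h2aa1 (ILMN_2751948) gave 6.90, 6.93 and 7.07 in the PFC against 7.22, 7.23 and 7.18, a difference of -0.25 ± 0.07 (SE). This probe showed a like difference with Cpd-60 in the same region, against the same vehicle pools. Hist2h2aa2 (-0.23) and Hist1h4h (-0.17) lay lower in the HIP, Hist2h3c1 (ILMN_3136540, 0.23) higher in the PFC and Hist1h3f (0.14) higher in the NAc, all without overlap of pools. In the PFC, H2A probes of CI-994 pool 1 lay far below its other pools, at 9.45 against 10.37 and 10.25 for Hist1h2ad (ILMN_1226839).

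Outside the clusters, H1f0 was near background. Its 1 probe (ILMN_1259559) had a detection p of 0.01 or below on 16 of 36 arrays and passed the filter in the HIP only. Levels there were 6.72, 6.87 and 6.97 with Cpd-60, 7.07, 6.88 and 6.85 with SAHA, 7.12, 6.61 and 6.96 with CI-994 and 6.84, 7.14 and 6.74 with vehicle. The groups overlapped. Differences were -0.05 with Cpd-60 (95% confidence interval -0.34 to 0.24), 0.03 with SAHA (-0.27 to 0.32) and -0.01 with CI-994 (-0.30 to 0.28), with unadjusted p-values of 0.707, 0.854 and 0.947 by limma. A change smaller than these intervals was not detectable with this probe. H1fx, the linker gene for H1.10, had wide intervals too, and its probes differed from vehicle by 0.20 ± 0.17 and 0.22 ± 0.17 (SE) with Cpd-60, by -0.02 to 0.02 with SAHA and by about 0.25 with CI-994 on average. With SAHA the regions lay on opposite sides of vehicle, with H1fx at -0.25 and -0.46 for the HIP, 0.11 and 0.17 for the NAc and 0.09 and 0.34 for the PFC. The effect in the HIP minus the mean of the other regions was -0.35 ± 0.36 and -0.72 ± 0.36 (SE), and neither had an unadjusted p under 0.05.

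The H2A.Z genes lay on opposite sides of vehicle with Cpd-60. H2afz gave 10.89, 10.71 and 10.97 in the PFC against 10.53, 10.77 and 10.66 with vehicle, and 10.72, 10.65 and 10.55 in the NAc against 10.49, 10.64 and 10.39. In the HIP it gave 10.68, 10.60 and 10.66 against 10.68, 10.62 and 10.56. The groups overlapped in all regions, and the average difference was 0.12 ± 0.05 (SE, adjusted p = 0.342 by limma). It was 0.15 ± 0.05 (SE) with CI-994 and -0.01 ± 0.05 (SE) with SAHA. Both H2afv probes lay lower with Cpd-60, with differences of -0.14 ± 0.06 and -0.15 ± 0.06 (SE), and neither passed adjustment (adjusted p = 0.346 and 0.289 by limma).

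The H3.3 genes, which encode the same protein, also lay on opposite sides of vehicle on average with Cpd-60. They were not tested against each other. H3f3b (ILMN_2648292) gave 9.09, 9.04 and 9.29 in the PFC with Cpd-60 against 8.77, 8.75 and 9.14 with vehicle, and 9.80, 10.08 and 10.64 in the NAc against 9.77, 9.56 and 10.34. The groups overlapped in these regions and did not in the HIP. Its average difference of 0.29 ± 0.13 (SE) had an adjusted p of 0.43 without the BeadChip block, and its second probe (ILMN_1231168), close to background, gave 0.05 ± 0.05 (SE). H3f3a (ILMN_3145213) differed by -0.05 ± 0.07 (SE). The remaining variant genes were H2afx (H2A.X, the form phosphorylated at DNA breaks), H2afy and H2afy2 (macroH2A) and H2afj, and they differed from vehicle by -0.10 to 0.03 with Cpd-60 on average.

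Other genes of histone supply were counted from fixed lists. Of 15 genes for histone mRNA processing and transcription, such as Slbp, which binds the stem-loop, and Npat, which activates the clusters, 7 were tested in all regions. None passed adjustment with any drug, and their median difference with Cpd-60 was -0.06. Of 21 histone chaperone genes 18 were tested, none passed, and the median with Cpd-60 was 0.00. Among 17 genes of the cell cycle and S phase 9 were tested, none passed, and the median was -0.01, with 1 of the 9 lower at an unadjusted p under 0.05. Intensity was summed over the 13 genes of this list that were tested in any region. In the HIP the sum was 1686 to 1741 with Cpd-60 and 1728 to 1766 with vehicle. In the PFC it was 1539 to 1614 with Cpd-60 and 1556 to 1617 with SAHA, both below the 1623 to 1644 with vehicle. In the NAc it was 1704 to 1729 with Cpd-60 and 1686 to 1784 with vehicle. The part of these genes in the histone values was not tested.

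Cell type markers were compared in the same way. In bulk tissue fewer cells of a type and less RNA per cell cannot be told apart. All 7 astrocyte markers had differences above 0 with Cpd-60 on average (median 0.13, 3 with an unadjusted p under 0.05, none after adjustment). Summed, they were 17884 to 18644 in the HIP with Cpd-60 against 15555 to 17161 with vehicle, without overlap. The median over microglial markers was -0.01, over endothelial markers -0.04, over oligodendrocyte markers 0.05 and over choroid plexus markers 0.12. For the regional markers it was -0.07 (cortex), 0.07 (striatum) and -0.02 (hippocampus). The 3 red blood cell genes lay lower with each drug, with medians of -0.29 for Cpd-60, -0.36 for SAHA and -0.61 for CI-994, where 1 passed adjustment (Hbb-b1, -0.61). The part of these markers in the histone values was not tested.

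Between regions, the vehicle pools alone showed differences in histone levels that passed adjustment. Of 64 member probes, 30 differed between the HIP and PFC (25.9% of all probes), 27 between the NAc and PFC (19.5%) and 8 between the HIP and NAc (16.7%). Clustered genes lay higher in the HIP and NAc than in the PFC. The members higher in the HIP than in the PFC numbered 29, against 12.6% of all probes higher, and comprised 28 clustered probes, among them 12 of 13 H2B probes, and H3f3b. The members higher in the NAc than in the PFC numbered 27 (8.57% of all probes), and those higher in the HIP than in the NAc numbered 6 (7.5%). Member medians were 0.26, 0.26 and 0.04, against -0.04, -0.01 and -0.01 for all probes. Region and BeadChip cannot be told apart in these comparisons, because each region had its own chips.

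The region differences were largest for Hist1h2bc (ILMN_1242399), whose vehicle pools gave 9.76, 9.89 and 9.90 for the HIP, 8.87, 8.93 and 9.69 for the NAc and 7.54, 7.57 and 7.96 for the PFC. This came to 2.16 ± 0.33 (SE, adjusted p = 2e-05 by limma) between the HIP and PFC. H3f3b differed by 1.39, Hist2h3c1 by 1.34 and Hist2h3b by 1.26 in the same comparison. Among the other H2B genes, Hist1h2bn (0.90), Hist1h2be (0.83, 0.78 and 0.42), Hist1h2bk (0.78 and 0.72), Hist1h2bf (0.70), Hist1h2bj (0.66), Hist1h2bh (0.63), Hist1h2bm (0.56) and Hist2h2be (0.50) were higher in the HIP. With Hist1h2bc, these 12 probes cover 9 genes.

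Of the H2A genes, Hist2h2aa2 (0.84), Hist2h2aa1 (0.50), Hist1h2af (0.44) and Hist2h2ac (ILMN_1254276, 0.39) were higher in the HIP than in the PFC. Of the H4 genes, Hist1h4h (0.78), Hist1h4a (0.68), Hist1h4i (0.49) and Hist1h4k (0.30) were higher. The H3 genes Hist1h3h (0.86), Hist1h3e (0.38), Hist1h3f (0.26) and the second Hist2h3c1 probe (0.26) and the H1 gene Hist1h1c (0.45 and 0.32) were higher too. The member lower in the HIP was H2afy2 (-0.26), which encodes a macroH2A. In the NAc against the PFC, Hist1h2bc (1.47), H3f3b (1.01), Hist2h3b (0.88), Hist2h3c1 (0.81), Hist1h2bf (0.75) and Hist1h2bh (0.71) were highest. The H2B genes Hist1h2be (0.66, 0.66 and 0.56), Hist1h2bj (0.65), Hist1h2bn (0.62), Hist1h2bk (0.61 and 0.47), Hist1h2bm (0.48) and Hist2h2be (0.26) were higher as well. So were Hist1h3h (0.66), Hist1h3e (0.33), Hist1h3f (0.32), Hist1h4a (0.61), Hist1h4i (0.50), Hist1h4h (0.38), Hist1h1c (0.51 and 0.44) and the H2A genes Hist1h2ah (0.56) and Hist2h2aa2 (0.47).

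The variant H2afv stood apart, as it was highest in the NAc. Its vehicle levels (ILMN_2688345) were 9.40, 9.40 and 9.41 for the NAc, 9.06, 8.98 and 8.92 for the HIP and 9.09, 9.07 and 8.77 for the PFC. The NAc pools lay above all others, and the differences were 0.43 and 0.46 for its 2 probes between the NAc and PFC and -0.42 and -0.49 between the HIP and NAc. The vehicle levels of H2afz, given above, overlapped between regions, and it was not called between any of them. H2afj (ILMN_1222767) was higher in the HIP than in the NAc by 0.41. The other members higher in the HIP than in the NAc were Hist1h4h (0.40), Hist2h2aa2 (0.37), Hist2h2be (0.36), Hist1h2bk (0.31) and Hist2h2ac (0.30). The 8 members that differed between the HIP and NAc in either direction became 5 without vehicle pool 1 and 3 without vehicle pool 2. The share of all probes with a pool left out is not given, so this shift cannot be read as particular to the members.

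**Figure D4:**
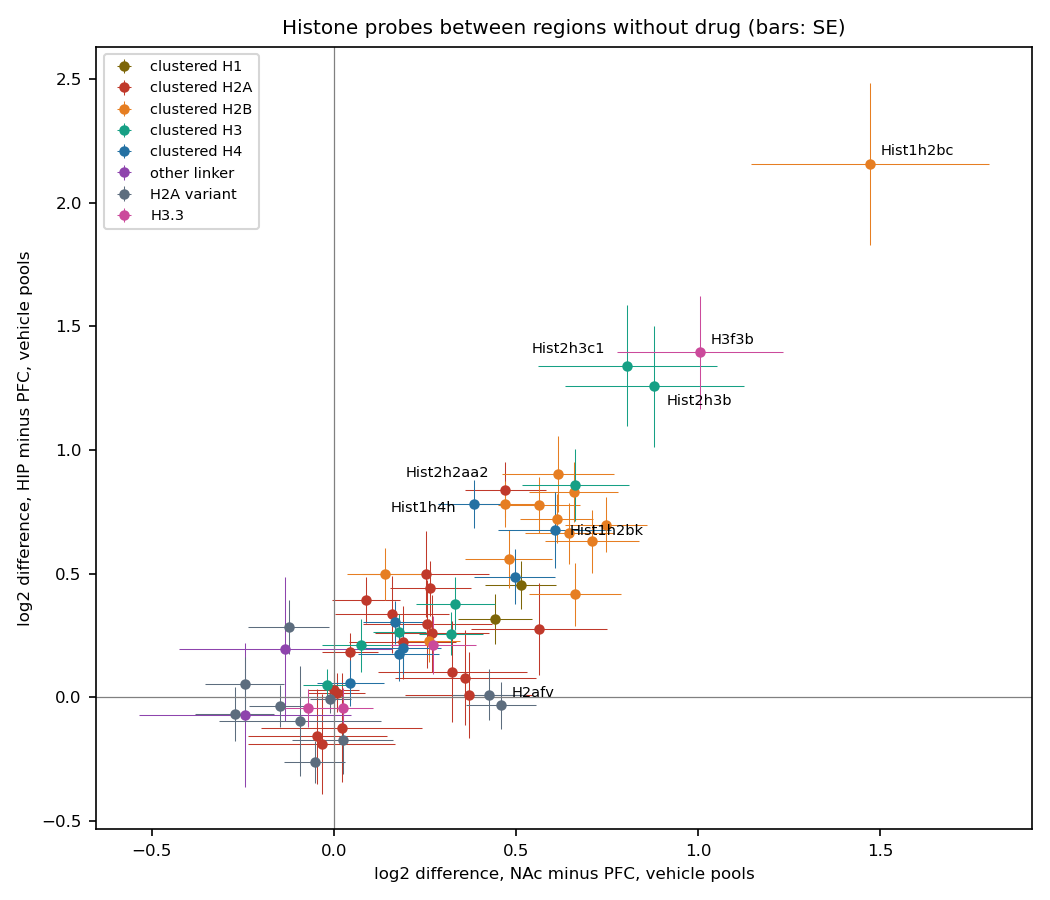
Differences of 64 histone probes between regions in the vehicle pools, with NAc minus PFC on the x axis and HIP minus PFC on the y axis (log2 scale, bars for the SE, coloured by class). Most clustered probes lay above 0 on both axes, Hist1h2bc (1.47 and 2.16) and H3f3b (1.01 and 1.39) lay farthest out, and H2afv was raised in the NAc alone.

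Levels also differed between the BeadChips of 1 region. In each region the first chip held 2 vehicle, 2 Cpd-60, 1 SAHA and 1 CI-994 pools and the second chip the remaining 6, so vehicle and Cpd-60 were balanced over the chips while SAHA and CI-994 were not. Within a treatment the chips held different pools of mice, so chip and animals cannot be told apart. In the NAc, 17 of 79 member probes and 22.9% of all probes differed between the second and the first chip at an adjusted p under 0.05 (limma, with treatment in the model), against 0 of 65 members in the PFC (0.144% of all probes) and 0 of 79 in the HIP (1.19%). Hist1h2bc was higher on the second chip by 1.09, Hist2h3b by 0.87, Hist2h3c1 by 0.86, H3f3b by 0.79, Hist1h3h by 0.49 and Hist1h2bn by 0.48, and H3f3a (ILMN_3145213) differed by -0.37. The vehicle pools of H3f3b in the NAc thus gave 9.77 and 9.56 on the first chip and 10.34 on the second. The probes with the largest chip differences, Hist1h2bc, Hist2h3b, Hist2h3c1 and H3f3b, are also those with the largest differences of the HIP and of the NAc from the PFC. Hist1h2bk, which is not among the 17, lay between 8.41 and 8.79 on all NAc arrays.

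**Figure D5:**
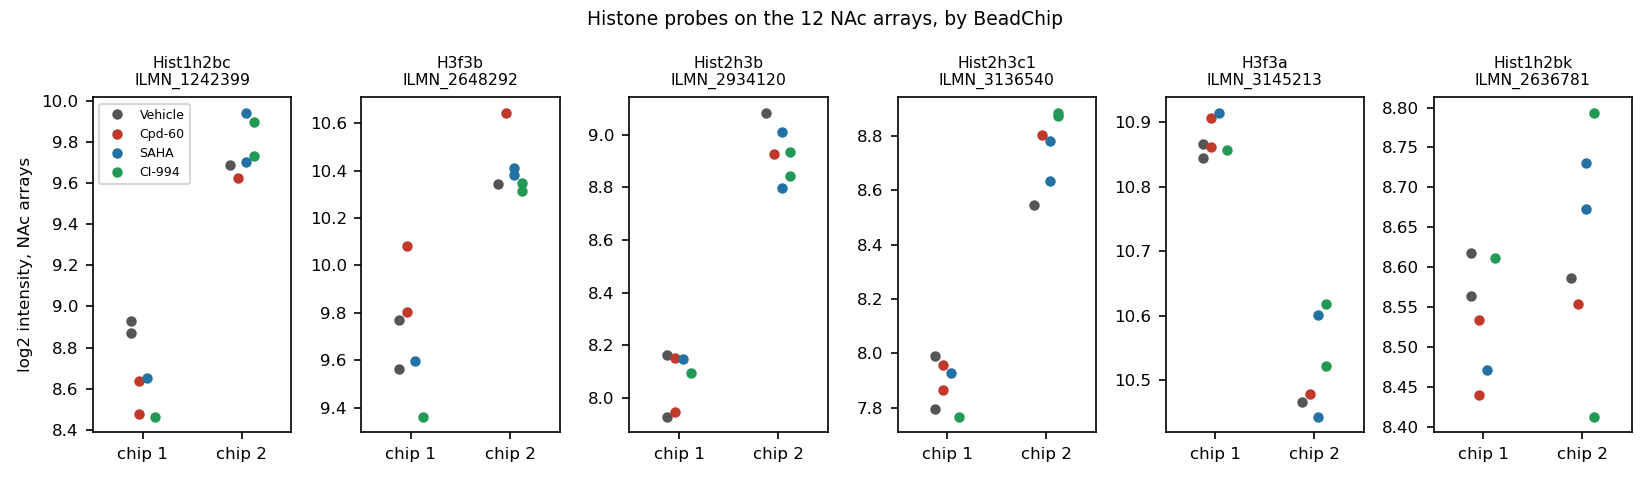
Levels of 6 histone probes (log2 intensity, y axis) on the 12 NAc arrays, by BeadChip (x axis) and treatment (colour), with 1 point for each pool. Hist1h2bc, H3f3b, Hist2h3b and Hist2h3c1 separated by chip whatever the treatment, H3f3a lay lower on the second chip, and Hist1h2bk did not separate.

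Members of a class varied together to different degrees over the 36 arrays, which share regions and chips. The median correlation between probes of a class was 0.47 for H2A (18 probes), 0.46 for H4 (7 probes) and 0.36 for H2B (13 probes). It was 0.09 for H3, 0.14 for the H2A variants and -0.09 for H3.3. These are descriptions of arrays that share animals and hybridization. For H2A, arrays such as that of NAc Cpd-60 pool 1, the dimmest, and PFC CI-994 pool 1 lay low for several genes at once, with Hist1h2ao at 9.31 and 9.63 against 9.73 to 10.17 and 9.79 to 10.14 in the vehicle pools of those regions.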

How the data were processed

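The authors deposited raw intensity for each probe on 36 arrays, neither background-subtracted nor normalized, and a deposited detection p-value for each probe. Probe sequences were not used here. The histone genes and the other gene lists were chosen with earlier results of these data known. Intensities were quantile normalized (floor of 1) and log2 transformed in R 4.3.3 with limma 3.58.1. Probes with a detection p of at most 0.2 in 3 of 3 arrays of 1 group of a region were fitted per region with limma, without covariates, and p-values were adjusted by Benjamini-Hochberg over all probes. Averages and differences over regions used 19447 probes, with the animal pool as a random effect (consensus correlation -0.00497). With this 1 value for all probes, the arrays of a pool were treated nearly as independent. The SE and p-values of the averages thus carry almost no allowance for shared animals. Named were every tested gene outside the clusters, the 6 clustered genes of highest mean signal, members with an adjusted p under 0.05, and up to 3 largest rises and falls (unadjusted p under 0.05, pools not overlapping) per drug and region. The limma fits of Cpd-60 in the HIP and averaged over regions were tested on simulated data, and the other steps were not. The alternatives were neqc normalization (offset 16), detection filters, blocks, 27 arrays, a Tukey test over all treatments and each pool left out. Motifs and figures were made in Python 3.11.15.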

Additional observations from a re-analysis of the deposited data

How the results depend on the processing

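For Cpd-60 against vehicle, the number of member probes lower at an unadjusted p under 0.05 depended on the setting. In the PFC it was 10 without a detection filter and 3 by the Tukey test, against 6. In the NAc it was 8 without a detection filter, 10 with the BeadChip as a block, 2 by the Tukey test and 3 with 27 arrays, against 5. In the HIP it was 8 by the Tukey test, against 23. With each pool left out in turn it was 9 to 29 for the HIP, 2 to 11 for the NAc, 4 to 15 for the PFC and 14 to 36 on average. The NAc extremes came without vehicle pool 1 (2) and without Cpd-60 pool 2 (11), and the count was 3 without vehicle pool 2 or Cpd-60 pool 1 and 9 without vehicle pool 3. Members passing adjustment for Cpd-60 on average, against 0, were 6 with the BeadChip as a block and 0 to 11 with a pool left out, 11 of them without Cpd-60 pool 3. Where a pool was left out, its group kept 2 arrays. Shares of all probes are not given for the counts at an unadjusted p in this section. Their shifts therefore cannot be read as particular to the members.

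The pool numbers were not taken to pair samples across treatments, since not every pair of the same number had a correlation of deviations over 0.1. It ranged from -0.17 to 0.66 for the HIP, from -0.44 to 0.87 for the NAc and from -0.32 to 0.58 for the PFC. Its median was 0.43 in the NAc, 0.21 in the HIP and 0.05 in the PFC, against -0.36, -0.10 and 0.08 for pools of different numbers, and in each region pool 1 of every treatment was on the first chip and pool 3 on the second. With the pool number as a block, the counts lower were 28 for the HIP, 8 for the NAc and 6 for the PFC, and no member passed adjustment. Without the pool as a random block, the count on average was 28, against 29.

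With a pool left out, 21 to 32 members differed between the HIP and PFC, 18 to 28 between the NAc and PFC and 3 to 9 between the HIP and NAc. The share of all probes in these fits is not given, so such shifts cannot be read as particular to the members. Under neqc, no detection filter or the BeadChip as a random block, the calls lost were Hist2h2aa1 and Hist1h3f between the HIP and PFC, Hist1h2ah, Hist2h2be and Hist1h3e between the NAc and PFC, and Hist1h2bk (ILMN_2655785) between the HIP and NAc. No named value changed sign past the threshold under any alternative run, and no SAHA or CI-994 member passed adjustment under any. The causes were not tested. Precision is limited by 3 pools per group.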
